A study of Mus musculus with 2 samples.

Results

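Pyruvate, ketone bodies and glycerol are fuels that mitochondria burn or prepare for burning. For some proteins that handle them, and for cytochrome c of the respiratory chain, the mouse genome carries a copy used through the body. Another copy is used mainly in the testis. The set described here holds 4 such pairs, 8 genes in all: Pdha2 and Pdha1, Cyct and Cycs, Oxct2a and Oxct1, and Gykl1 and Gk, the testis copy first. The members were all non-control array probes whose gene name, or whose current symbol through the accession, is 1 of the 8. This gave 16 probes of 15208, 5 for the testis copies and 11 for the somatic copies, and all 16 were well above background on both arrays. The genes were chosen with their values in these data known, so the values below are a description and carry no test.

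Adult Swiss males, 3 months old, were the source of the RNA, and the labels call the material Sertoli cells, which nurse germ cells inside the seminiferous tubule. Untreated animals gave the control library. The second library was made 1 month after busulphan at 25 mg/kg, an alkylating drug that depletes dividing germ cells. Both groups share strain, age and sex, and no allele or transgene is named in the labels. The cells were held back by a cell strainer after enzyme digestion of the testis and were not cultured, and how many mice a preparation pools is not given in the labels. Each group has 1 single-colour array, so the number of arrays limits the precision, no difference has a replicate check and every direction compares these 2 libraries only.

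Pyruvate dehydrogenase turns pyruvate into acetyl-CoA, and its E1 alpha subunit is Pdha1 on the X chromosome in most cells and Pdha2, an autosomal copy, in male germ cells. Cytochrome c carries electrons to the last complex of the respiratory chain and triggers apoptosis when it leaves the mitochondrion, with Cycs as the general form and Cyct as the testis form. Oxct1 and Oxct2a encode the transferase that activates acetoacetate so that ketone bodies can be oxidised. Gk, also X-linked, and its autosomal copies Gykl1 and Gk2 encode glycerol kinase or proteins like it. Genes on the X chromosome are silenced during male meiosis, and autosomal copies of X-linked genes are known to be used in germ cells at that stage and later.

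Ketone body transferase gave the widest gap of the 3 pairs measured without a bound, and the array reads it through 5 probes. The 60-base designed probes of the testis copy are shown because they carry this gap, with those probes of Oxct1 that lie nearest to them in the transcript. They are written 5′ to 3′ in lower case. Those of Oxct2a lie at chr4:122999796-122999855 and chr4:122999397-122999456 on the minus strand of mouse build mm9 and start at bases 1023 and 1422 of the transcript. Those of Oxct1 lie on the plus strand at chr15:4051159-4051822 and chr15:4051863-4078876, spans longer than the probes because each crosses an intron, and start at bases 1476 and 1576. Whether these stretches are coding is not given in the files.
Oxct2a, base 1023: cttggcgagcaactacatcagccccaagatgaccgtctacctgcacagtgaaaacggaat
Oxct2a, base 1422: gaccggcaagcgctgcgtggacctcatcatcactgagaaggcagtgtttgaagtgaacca
Oxct1, base 1476: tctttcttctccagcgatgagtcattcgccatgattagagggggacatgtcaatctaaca
Oxct1, base 1576: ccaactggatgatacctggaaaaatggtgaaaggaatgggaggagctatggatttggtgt

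The testis copy of this transferase was far lower in the busulphan library. At base 1422 the processed signal of Oxct2a was 47292 in the control library and 279 in the busulphan library. The spot at base 1023 had 29869 and 156. On the control array 1 of 66 pixels of the first spot was saturated, which did not mark the spot as saturated. After each array was scaled to the 75th percentile of its probes, the log2 ratio of busulphan over control was -7.20 for the first probe, 147-fold lower, and -7.37 for the second, 165-fold lower. The scanner software's own error on each of these log2 ratios was 0.20. On the control array it was nearly the same share of either signal (4729 of 47292 and 2987 of 29869). It is therefore not a measured spread between spots, and it does not cover the animals. Of 8404 genes measured on both arrays without saturation, Oxct2a had the third lowest ratio. The probe at base 1023 also lists the transcript of Oxct2b, a second testis copy, so the pair of genes can share that spot, while the other probe lists Oxct2a only.

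The somatic copy Oxct1 differed far less between the libraries. Its signals were 10263 (control) and 5462 (busulphan) for the probe at base 2036 (chromosome 15, 4103898 to 4103957), which is the brightest and stands for the gene, with a log2 ratio of -0.70. This is within 2-fold, the size used here to call a gene higher or lower. The probes printed above gave 3200 and 1175 (base 1576, -1.24) and 3241 and 1088 (base 1476, -1.37), both past 2-fold. With the median over its probes, -1.24, or with scaling to spike-in controls, -1.34, the gene was called lower, while it was -0.09 with quantile normalization and -0.22 with loess. All 3 probes were lower in the busulphan library, and their log2 ratios spread over 0.66. The difference between the log2 ratios of Oxct2a and Oxct1 was -6.49 (90.1-fold, software error 0.29), and it lay between -5.83 and -6.67 over the 6 pairings of their probes.

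**Figure D1:**
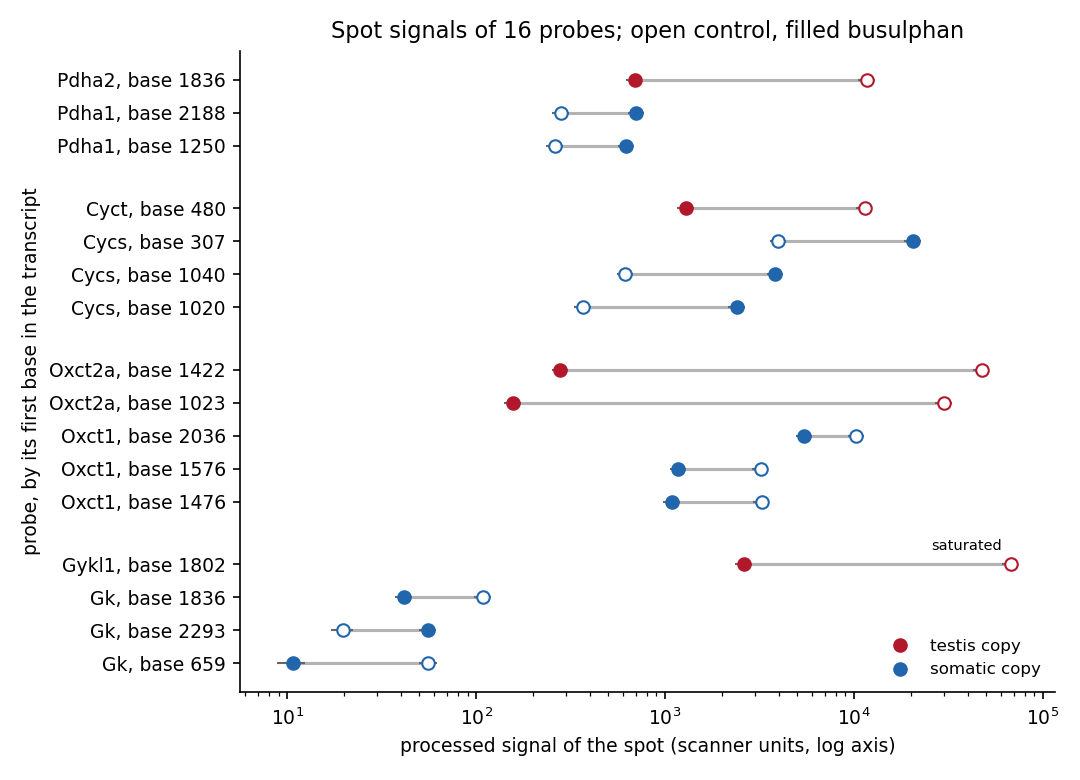
Processed spot signal (scanner units, log axis) of each of the 16 probes, named by gene and first base in the transcript, on the control (open) and busulphan (filled) arrays; red marks testis copies, blue somatic copies, and horizontal bars the software error. All 5 red probes are lower on the busulphan array, while the blue probes of Cycs and Pdha1 are higher and those of Gk point both ways; signals of different probes are not comparable with each other.

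In the E1 alpha subunit of pyruvate dehydrogenase the copies went opposite ways. The single probe of Pdha2 (chromosome 3, 140873425 to 140873484 of mm9) gave 11668 in the control library and 689 after busulphan, a log2 ratio of -3.87 (14.7-fold lower, software error 0.20). Pdha1 was the reverse, lower in the control library and higher after busulphan. Its probe at base 2188 (chromosome X, 156560665 to 156560724) had signals of 280 and 704, a log2 ratio of 1.54 (2.90-fold), and its probe at base 1250 had 260 and 623, a ratio of 1.47. These probes differed by only 0.07. The log2 ratio of Pdha1 was 0.90, within 2-fold, with scaling to the spike-in controls. The difference of Pdha2 from Pdha1 was -5.41 (42.6-fold), and with the other Pdha1 probe it was -5.34.

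Cytochrome c showed the same opposition. Cyct, read by 1 probe (chromosome 2, 76192113 to 76192172), gave 11372 in the control library and 1287 after busulphan, a log2 ratio of -2.94 (7.65-fold lower). Of the 4 testis copies this was the smallest difference. Cycs had signals of 3974 and 20485 at base 307 (chromosome 6, 50515255 to 50515314), of 616 and 3836 at base 1040, and of 368 and 2399 at base 1020. The log2 ratios were 2.57, 2.85 and 2.91, so that each probe was higher in the busulphan library. The last pair of probes share 40 of their 60 bases and are not independent readings, and cytochrome c has many processed pseudogenes in the genome that a probe in its coding part could also read. The difference of Cyct from Cycs was -5.51 (45.6-fold), between -5.51 and -5.85 over the 3 pairings.

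In glycerol kinase the testis copy can only be given a bound. The spot of Gykl1 was saturated on the control array, with 62 of its 64 pixels at the scanner's limit. Its signal was 67375 there and 2608 on the busulphan array. The log2 ratio was therefore at most -4.48, at least 22.4-fold lower. The probe lies on chromosome 18, 52855145 to 52855204 of mm9. Gk2, which is no member but is the other autosomal copy, was saturated on the control array as well, with signals of 58655 and 2295, and was at least 22.1-fold lower.

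Gk itself was faint and its probes disagreed. The probe at base 1836 (chromosome X, 82949721 to 82956434 of mm9, a span that crosses an intron) had signals of 109 and 41.4, a log2 ratio of -1.18 that stands for the gene. The probe at base 659 had 55.8 and 10.7, a ratio of -2.18, and the probe at base 2293 had 19.7 and 55.5, a ratio of 1.71. Base 2293 is counted on another Gk transcript than the other bases, although that probe lists both transcripts. So 2 probes were lower and 1 higher in the busulphan library, a spread of 3.88, and the direction of Gk is not settled by these arrays. Whether a Gk probe also reads Gykl1 or Gk2, both saturated on the control array, could not be checked. That limit also holds for the difference between Gykl1 and Gk. With normexp background correction the ratio of the gene was -0.57, within 2-fold. The difference of Gykl1 from Gk was at most -3.30 (at least 9.85-fold), and over the 3 Gk probes that bound lay between -2.30 and -6.19.

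Over the whole set all 4 testis copies and all 5 of their probes were at least 2-fold lower in the busulphan library. Of the 4 somatic copies, Pdha1 and Cycs were at least 2-fold higher, Oxct1 lay within 2-fold, and Gk, lower by its brightest probe (-1.18), had a probe at 1.71 and is given no direction. Over all 9438 genes compared, 29.5% were called lower and 31.3% higher by the same rule, and the median log2 ratio was 0.07, and over all probes compared 29.0% and 31.6% were. Since the members were chosen on these ratios, nothing is read from their count against that background. Where the members sit among the genes measured on both arrays without saturation is given as a description: 5.72% of these genes had a lower ratio than Pdha2 and 10.1% a lower ratio than Cyct, while 8.20% had a higher ratio than Cycs and 23.0% a higher ratio than Pdha1. Oxct1 lay nearer the middle, with 33.1% of genes lower, and Gk is not ranked because its probes disagreed. With 2 arrays a gene's pattern is a single ratio. The compared genes nearest to the testis copies by this measure were Etv2 to Pdha2 (-3.87), Arih1 to Cyct (-2.93) and Ppp2r2b to Oxct2a (-7.20).

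**Figure D2:**
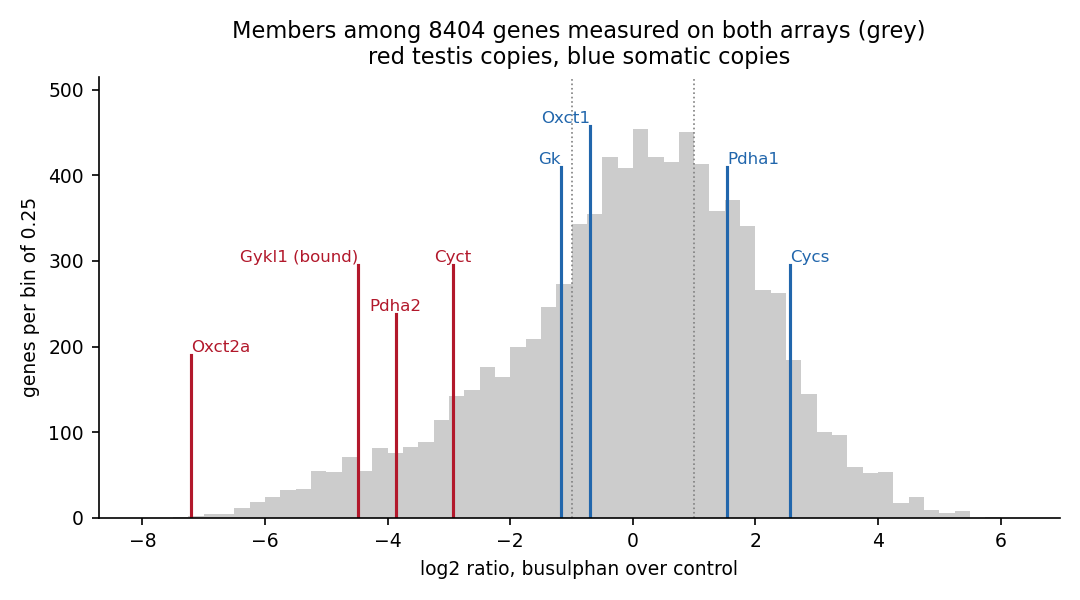
Number of genes per bin of 0.25 in the log2 ratio of busulphan over control, for the 8404 genes measured on both arrays without saturation (grey), with the 8 members as vertical lines whose height has no meaning; dotted lines mark 2-fold. The testis copies (red) lie between -2.94 and -7.20, Gykl1 at its bound, and the somatic copies (blue) between -1.18 and 2.57.

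Germ cell markers differed between the libraries as well. All 6 spermatid genes that could be compared were called lower after busulphan, 5 of them as bounds, with a summed signal of 362487 in the control library and 34541 in the other, and of 7 spermatocyte markers 5 were lower and none higher (85749 and 10619.6). Among them Tnp1, Tnp2 and Prm1, which pack sperm chromatin, were lower by at least 8.12-fold, 98.3-fold and 3.55-fold, the meiotic cyclin Ccna1 29.3-fold lower and the synaptonemal protein Sycp3 2.87-fold lower. Of 10 Sertoli cell markers 9 were higher and none lower (summed signal 12330.4 and 116783). Sox9 was 34.8-fold higher (172 and 5173), Fshr 29.4-fold (30.3 and 770) and Wt1 at a log2 ratio of 3.53 (632 and 6306). Each of the 10 was well above background on both arrays, but Clu alone gave 8565 of the control sum. How much of the control RNA came from Sertoli cells was not tested. Markers of macrophages were higher in 4 of 5 (666 and 2905). Those of Leydig cells (1 of 4 higher) and myoid cells (1 of 4 higher) were mostly within 2-fold. Of 4 endothelial markers 1 was higher, 1 lower and 2 within 2-fold, and another probe of the lower one lay within 2-fold. Spermatogonium markers were split (1 of 3 higher, 1 lower), but the other probe of each called gene lay within 2-fold. The part of these shifts in the ratios of the 8 members was not tested, and in bulk RNA fewer cells of a type and less RNA per cell cannot be told apart.

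Fuel enzymes outside the set were read from 5 gene lists, each counted beside the background given above. Around pyruvate dehydrogenase, 4 of 9 genes compared were called lower and 3 higher, and the list's median log2 ratio was -0.53. Dlat, the E2 subunit, had signals of 7282 and 1399 (-2.17, with a second probe at -1.08), and Pdhb, the E1 beta partner of both alpha subunits, had 13727 and 4326 (-1.46, with a second probe at -1.55). Pdhx, which holds E3 in the complex, was at -2.06 by its brightest probe, while its other probe was 2.30-fold higher. Pdhb and Pdhx were named after their values were seen. Of the kinases that switch the enzyme off, only Pdk2 was lower, with signals of 958 and 78.1 (-3.41). Pdk3 had 172 and 1075 (2.85), Pdk1 128 and 742 (2.75) and Pdk4 179 and 687 (2.15). Pdk4 was likewise named after its values were seen. The ratio of Pdhb thus lay between those of Pdha2 and Pdha1.

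Among 20 partners of cytochrome c compared, mostly subunits of cytochrome c oxidase, 6 were lower and 7 higher, and with quantile normalization or loess 3 were lower. The list's median was -0.03, whose sign turned under normexp (0.11), quantile normalization (0.03), scaling to probes bright on both arrays (0.10) and a filter to probes well above background on both (0.03). Cox4i1, with signals of 42743 and 18469.8, was counted as lower and sits at the 2-fold threshold. It was named after its values were seen. The lowest was Cox6b2, the testis form of an oxidase subunit, with signals of 16116 and 787 (-4.15). The next was Cox7a2 with 42380.1 and 5163 (-2.83), whose second probe, overlapping the first, gave -2.90. Cox7a1, the form of heart and muscle, had 220 and 1923 (3.34) and Cox8a 3894 and 15377 (2.19). So within this list too a testis form was lowest and its general form, Cox6b1, was higher, at signals of 114 and 262 (1.41).

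Among 12 ketone body genes compared, 6 were higher and 2 lower. The list's median was 1.17, which was 0.85 with loess, 0.96 with no scaling and 0.53 with spike-in scaling. The higher ones included Slc16a1, a carrier of ketone bodies and lactate, with signals of 1038 and 5392 (2.59; its other probes gave 2.68 and 2.12), and Acat2, a thiolase, with 57.6 and 262 (2.40). The carrier Slc16a7 went the other way, with 20486 and 639 (-4.79), as did basigin (Bsg), which escorts such carriers to the membrane, with 4515 and 712 (-2.46). With spike-in scaling 4 genes of the list were called lower, and with the median over probes 3.

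Glycerol genes had the lowest median of the 5 lists. Of 10 compared, 7 were lower and 3 higher, and none lay within 2-fold. The testis copy Gk2, at most -4.47, is 1 of the lower genes. The list's median was -3.49, and -2.67 with the median over probes. Aqp7, a channel for water and glycerol, had signals of 18288 and 236 (-6.07, 67.1-fold). Its second probe gave the same ratio but overlaps the first and is not an independent reading. Gpd2, the mitochondrial glycerol phosphate dehydrogenase, had 37007 and 903 (-5.15), but its other probe, with 299 and 185, gave only -0.48. Gpd1, the cytosolic enzyme of the same shuttle, had 1256 and 10736 (3.30), and the lipase Lpl 51.1 and 157 (1.83). Lipe, the hormone-sensitive lipase that frees glycerol from fat, was named after its values were seen, and had 3718 and 124 (-4.70, with a second probe at -6.14). Because these genes also serve fat cells, adipocyte markers were read beside them: of 3 compared, 1 was lower, Adipoq with 1044 and 39.0 (-4.54), 1 higher and 1 within 2-fold. Adipoq was likewise named after its values were seen. Lep was not well above background on either array. The parts of adipocyte RNA and of germ cell RNA in the glycerol list were not tested.

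Of 18 citric acid cycle genes compared, 6 were lower and 4 higher, and with quantile normalization 3 were lower. The list's median was 0.07 and fell below 0 with spike-in scaling (-0.57), median scaling (-0.10) and no scaling (-0.14), while it was 0.63 with quantile normalization and 0.46 with loess. Ogdh, the E1 subunit of the 2-oxoglutarate complex, had signals of 2654 and 447 (-2.36) and Sdhb, a subunit of succinate dehydrogenase, 4971 and 1536 (-1.49). Sucla2 was saturated on the control array and at least 4.22-fold lower, although its other probe, unsaturated, gave -0.50. Mdh1, the cytosolic malate dehydrogenase, had 1329 and 4937 (2.10), and Idh3g, an X-linked subunit, 1580 and 4818 (1.82). The cycle as a list thus held genes of either direction.

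**Figure D3:**
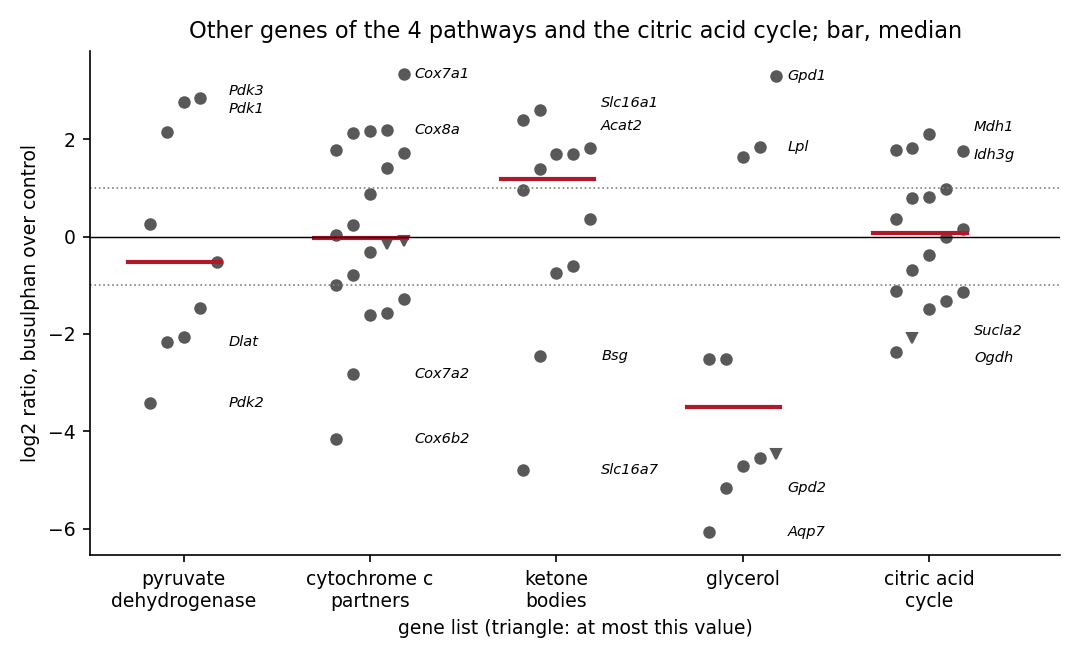
Log2 ratio of busulphan over control for each compared gene (points) of 5 gene lists, with the list median as a red bar, downward triangles for genes whose ratio is at most the plotted value, dotted lines at 2-fold and the names of the extreme genes. The glycerol list has its median at -3.49 and no gene within 2-fold, while the other medians lie between -0.53 and 1.17.

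Other genes with a testis copy and a general copy were set beside the 4 pairs. Of 14 such pairs, 7 gave a difference of log2 ratios. In 6 of them the testis copy was at least 2-fold lower relative to its general copy. By the same size for single genes, 29.5% of all genes were lower and 31.3% higher. How often unrelated genes differ this much from each other was not computed, so nothing is read from this count. For the glycolytic kinase pair Pgk2 and Pgk1 the signals were 66529.9 and 1517 for Pgk2, saturated on the control, and 1948 and 4716 for Pgk1, a difference of at most -6.73. The files place the Pgk1 probe on chromosome 3, so which copy it reads is uncertain. For Pgam2 and Pgam1 the difference was at most -7.07, for Cox6b2 and Cox6b1 -5.56, and for the splicing factors Rbmxl2 and Rbmx -4.80. For the ADP/ATP carriers Slc25a31 and Slc25a5 it was -3.99, and for Gk2 and Gk at most -3.28. Slc25a31 itself was at -0.91, within 2-fold, while Slc25a5 was at 3.07. The pair of Gk2 shares Gk, which has no settled direction, with a member pair. Of the 4 pairs described here, those measured without a bound ran from -5.41 to -6.49. The seventh, Cstf2t and Cstf2, subunits of a factor that cleaves mRNA ends, differed by 2.16 in the other direction, with Cstf2t at -0.73. Its general copy Cstf2 was read by discordant probes, -2.89 and 1.81, and with the median over probes the difference was -0.19.

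Ldhc and Ldha were both saturated on the control array, at most -1.44 and at most -2.39, and their difference has no direction. For Gapdhs (at most -6.36), Cox7b (2.16), Cox8a (2.19) and Rpl10 (1.02) only 1 gene of the pair was compared, and the copies Gapdh, Cox7b2, Cox8c, Rpl10l, Oxct2b, Utp14b and Utp14a were not analysed here. General copies with probes that the files place on the X chromosome differed among themselves. Pdha1, Slc25a5, Cox7b and Rbmx were at least 2-fold higher, and Gk and Cstf2 had probes in either direction. Rpl10 was higher by its probe placed there (1.52) and narrowly by its brightest probe, which has no position (1.02). With spike-in scaling Pdha1 was within 2-fold.

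**Figure D4:**
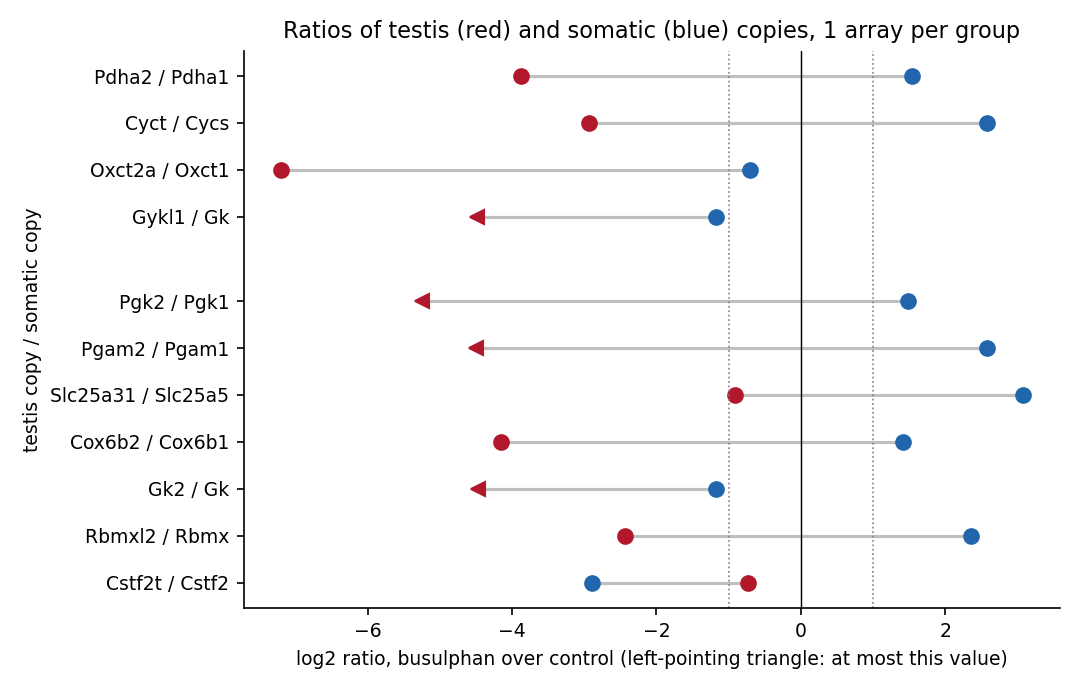
Log2 ratio of busulphan over control for the testis copy (red) and the general copy (blue) of each pair, joined by a grey line whose length is the difference; left-pointing triangles are ratios known only to be at most that value and dotted lines mark 2-fold. In all 4 member pairs, at the top, and in 6 of the 7 others the red mark lies left of the blue one.

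The promoters of the pairs whose copies went opposite ways are shown because their CpG content, counted below them, differed between the copies. Of the 8 members, 7 matched RefSeq's promoter table of build GRCm38.p6, and Gykl1 was not in it. The 250 bases before the annotated start are printed 5′ to 3′ on the gene's strand, in lower case with CpG dinucleotides in capitals. Pdha2 is at chr3:141212356-141212605, Pdha1 at chrX:160138431-160138680, Cyct at chr2:76360454-76360703 and Cycs at chr6:50566570-50566819, each on the minus strand.
Pdha2: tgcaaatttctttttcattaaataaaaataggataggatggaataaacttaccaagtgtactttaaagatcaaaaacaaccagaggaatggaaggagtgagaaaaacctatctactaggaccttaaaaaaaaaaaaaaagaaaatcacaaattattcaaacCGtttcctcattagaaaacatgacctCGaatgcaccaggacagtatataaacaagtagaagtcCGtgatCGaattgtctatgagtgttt
Pdha1: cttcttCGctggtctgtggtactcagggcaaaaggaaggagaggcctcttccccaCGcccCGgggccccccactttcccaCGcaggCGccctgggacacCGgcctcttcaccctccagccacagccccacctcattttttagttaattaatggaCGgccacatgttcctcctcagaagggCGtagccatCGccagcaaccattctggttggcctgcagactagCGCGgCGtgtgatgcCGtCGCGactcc
Cyct: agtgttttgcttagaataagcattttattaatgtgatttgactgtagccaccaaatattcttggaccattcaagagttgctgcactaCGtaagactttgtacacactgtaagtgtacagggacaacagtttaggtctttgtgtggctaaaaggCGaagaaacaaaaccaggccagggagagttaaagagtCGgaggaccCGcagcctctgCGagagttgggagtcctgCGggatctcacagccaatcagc
Cycs: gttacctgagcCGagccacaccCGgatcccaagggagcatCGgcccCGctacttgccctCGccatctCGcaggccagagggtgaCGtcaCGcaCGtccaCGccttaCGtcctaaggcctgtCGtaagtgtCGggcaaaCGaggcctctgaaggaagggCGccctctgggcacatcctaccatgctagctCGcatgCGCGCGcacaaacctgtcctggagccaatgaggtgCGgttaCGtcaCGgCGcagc

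The testis copies among the members had fewer CpG dinucleotides than their somatic copies in each of the 3 pairs with both promoters in the table. The counts were 4 in Pdha2 against 15 in Pdha1, 6 in Cyct against 23 in Cycs, and 3 in Oxct2a against 6 in Oxct1. Oxct2b, the other testis copy of that transferase and no member, went the other way with 7. Gk had 21. Over all 32851 promoters of the table the median was 6, so Pdha2, Cyct and Oxct2a lay at or below it and Pdha1, Cycs and Gk well above. The G and C content was 31.6% in Pdha2 against 61.6% in Pdha1 and 45.6% in Cyct against 64.0% in Cycs, while in the Oxct pair it was higher in the testis copy. The cyclic AMP response element TGACGTCA, a palindrome, was found in Cycs alone of the 7, with its first base 169 before the start. It occurs in 1.55% of all promoters of the table at this length. The shorter TGACG, searched on both strands, matched Cycs 3 times, 2 of them within the full element, and no other member, against 17.8% of all promoters. The GC box GGGCGG, also searched on both strands, matched Gk 3 times and no other member, against 32.7%. Such a match describes letters in this window and not the binding of a factor.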

How the data were processed

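1 control and 1 busulphan array were compared, with groups taken from the sample labels. Spots were read by Agilent's Feature Extraction software, whose background-subtracted and detrended intensity values are used as deposited, per the file headers. The authors' deposited log2 table equals log2 of that signal minus a constant for each array (10.03 and 9.82), with column medians of -2.94 and -2.77, so its scale, centring and direction are known. Whole-library facts: 80.9% and 79.3% of probes were well above background, 106 and 18 were saturated, and both headers give the same scan time.

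From these, log2 signals were scaled to each array's 75th percentile (1046 and 905). Of 15208 probes, 13327 were named through accessions (RefSeq table, GRCm38.p6) and 1881 kept the file's name, and 4 outlier spots were left out. A gene took its brightest probe among those well above background on at least 1 array. A saturated or dim spot on 1 array gave a bound. No test is possible with single arrays, and at least 2-fold either way was the rule of size. The ratio code was tested on simulated data. The members and lists were chosen with earlier results of these data known. Named genes were the 8 members, the 2 highest and 2 lowest of each list and those with a bound past 2-fold, both genes of each other pair, 8 markers and the nearest gene to each testis copy. R 4.3.3 with limma 3.58.1 (normexp, offset 50) and Python 3.11.15 were used. A planned comparison of protein sequences within the pairs was not run.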

Additional observations from a re-analysis of the deposited data

How the results depend on the processing

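The 4 pair differences kept their direction and stayed past 2-fold under all 12 alternatives run for them: between -4.82 and -5.41 for Pdha2 and Pdha1, -5.35 and -5.79 for Cyct and Cycs, -6.04 and -6.72 for Oxct2a and Oxct1, and bounds between -2.33 and -3.85 for Gykl1 and Gk. Scalings that shift a whole array cancel in these differences. Filters on dim probes could not act on any member, because every member probe was well above background on both arrays. Measured values in place of bounds left every member value the same. Only normexp, quantile normalization, loess and the median over probes could therefore move the differences. The 4 testis copies were each more than 2-fold lower under all 12. Of the somatic copies, Cycs stayed higher (1.94 to 3.24), Pdha1 was 0.90 with spike-in scaling, Oxct1 was -1.34 with spike-in scaling and -1.24 with the median over probes but -0.09 with quantile normalization and -0.22 with loess, and Gk was -0.57 with normexp. The difference of Cstf2t from Cstf2 reversed to -0.19 with the median over probes, where the discordant Cstf2 probes are averaged. The number of genes at least 2-fold higher was 1904 with spike-in scaling, against 2952, and thresholds of 4-fold gave 1674 lower and 1360 higher genes. Scaling moved the median of all genes from 0.07 to -0.57 (spike-in), -0.10 (median), -0.14 (none), 0.18 (quantile) and 0.24 (probes bright on both arrays). No paired analysis was possible because each group has 1 array. Saturation limits Gykl1 and Gk2 to bounds, and signals near background limit Gk.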

Other observations

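Compared genes on either side of the testis copies in RefSeq's gene order did not share their low ratios, except Sncaip. Genes that were not compared can lie between them and the testis copies. Beside Pdha2, the translation factor gene Eif4e had a log2 ratio of 0.18 and Bmpr1b, a BMP receptor, of at least 0.88. Beside Cyct, Agps was at 3.23 and Rbm45 at 2.37. Beside Oxct2a, Bmp8a was at 0.18 and Mycbp at 2.27. Beside Gykl1, Lox, which cross-links collagen, was at 2.09 and Sncaip at -3.06. These genes were looked up after the other values were seen, come from 1 array per group and carry no test.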
